A study of Xenopus laevis with 60 samples.

Results

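To describe what the embryo transcribes when translation of Pou5f3 is blocked and Sox3 is not targeted, embryos of the African clawed frog *Xenopus laevis* injected with morpholinos against *pou5f3.2* and *pou5f3.3* were compared with embryos injected with a GFP control morpholino. The 6 libraries of this comparison, out of 60 in the series, were chosen by their labels: 3 from *pou5f3.2*/*pou5f3.3* morphants and 3 from GFP controls of the same collection, named F. The series is a ribosomal RNA-depleted, strand-specific RNA-seq survey of early embryos, with inhibitor-treated and morpholino-injected embryos at and around the onset of zygotic transcription. A morpholino is a synthetic antisense oligomer that here blocks translation of its target, so the target mRNA itself need not fall. Morphants received 40 ng of *pou5f3.2*, 40 ng of *pou5f3.3* and 40 ng of GFP morpholino at stage 1, and controls received 120 ng of GFP morpholino, so that both groups carried 120 ng in total. All 6 libraries came from embryos of the Xla.NXR-WTNXR strain without cycloheximide, frozen when untreated embryos of the same collection were halfway through stage 9, at 8 h after fertilization. Each library held 2 whole embryos, and the eggs of a collection were pooled from 2 mothers, so the 3 libraries of a group are sets of embryos of 1 day. The edgeR p-values measure the spread between replicate libraries within groups, estimated jointly over the 53 libraries fitted. They do not show how this comparison would vary between days. In whole embryos, fewer cells of a type and less RNA per cell cannot be told apart.

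Pou5f3 proteins are the frog counterparts of mammalian OCT4, POU-domain transcription factors that open chromatin and bind composite sites together with SoxB1 proteins such as Sox3. In the frog blastula they act with maternal Sox3 to start the zygotic genome, and they are known to hold back early commitment of cells to a germ layer. *pou5f3.3* is the main maternal member, and *pou5f3.1* was not targeted by any morpholino here. In untreated embryos *pou5f3.2* had less maternal mRNA than *pou5f3.3*, rose by the late blastula and stood higher still in the early gastrula. As an ancient hybrid, *X. laevis* keeps most genes as 2 homeologous copies, one on the L and one on the S subgenome.

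The 6 libraries held 13832280 to 14872471 exon counts in the morphants and 11417105 to 14693307 in the controls. Counts in introns, which read unspliced new transcripts, made up 6.92 to 7.22% of all counts in the morphants and 6.08 to 6.38% in the controls. On the log2 scale over 14813 genes, libraries correlated at 0.9931 to 0.9953 within a group and at 0.9839 to 0.9875 between the groups. Replicates differed by more than sampling noise, with a chi-square of 2.07 to 6.66 per degree of freedom. The highest values came from both pairs with GFP replicate 1, and they were 2.63 and 2.21 once *smad4.S* was left out. Of 49 annotated genes of differentiated tissues that form after the blastula, 29 were at 0 TPM (transcript level per length, scaled to the library) in all 6 libraries, and the 49 summed to 1.25 to 2.99 TPM in the morphants and 1.26 to 2.02 TPM in the controls.

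The targeted mRNAs did not fall, and for translation-blocking morpholinos their level does not check the knockdown. Maternal *pou5f3.3.L* stood at 490, 486 and 491 TPM in the morphants, against 437, 433 and 436 TPM in the controls, and *pou5f3.3.S* at 360, 363 and 368 TPM against 321, 318 and 314 TPM. Both copies were slightly higher in every morphant library, by log2 differences of 0.14 ± 0.0703 (SE) and 0.16 ± 0.0679, and neither passed (edgeR quasi-likelihood test, adjusted p = 0.258 and 0.124). Zygotic *pou5f3.2.L* had 236, 250 and 256 TPM in the morphants and 207, 211 and 195 TPM in the controls. Its difference of 0.25 had an edgeR adjusted p of 0.0364, and that of *pou5f3.2.S*, 0.29, one of 0.0122. Untargeted *pou5f3.1.L* had 10.5, 10.0 and 12.5 TPM in the morphants against 7.65, 6.90 and 6.79 TPM in the controls, a difference of 0.61 (edgeR adjusted p = 0.000397). These differences all lay far below the log2 difference of 1.5 which, together with an adjusted p under 0.05, made a call here. The untargeted partner *sox3* was near its control level, with *sox3.L* at 320, 365 and 372 TPM in the morphants and 405, 386 and 377 TPM in the controls, a difference of -0.17 (edgeR adjusted p = 0.243). *sox3.S* overlapped between the groups and differed by -0.14 (adjusted p = 0.349), and *sox2.L* had under 10 TPM in every library, with 5.54, 3.53 and 3.14 TPM in the morphants and 8.11, 6.07 and 4.84 TPM in the controls. No member of the list of Pou5f3 and SoxB1 genes was called by edgeR or by DESeq2, out of 11 tested, and 5 higher and 1 lower ones had an unadjusted exon p under 0.05. At that level 3145 of all 27602 exon entries passed in either direction.

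Across the genome, 619 genes were higher in the morphants than in the controls by exons or introns, and 446 were lower, out of 27602 genes tested. These are 2.24% and 1.62% of all genes. By exons alone 254 genes (0.920%) were higher and 226 (0.819%) lower, and by introns 456 of the 9916 genes with a tested intron entry (4.60%) were higher and 319 (3.22%) lower. The exon differences of all genes centred on -0.03 on the log2 scale, whereas those of introns centred on 0.33, and 71.7% of intron entries lay above 0. When introns were scaled by themselves, which sets their median to -0.0226, 250 intron entries were higher and 482 lower, and the split by exons or introns became 436 higher and 599 lower. This alternative was chosen after the intron median had been seen, and the excess of intron rises over falls depends on it. Each intron difference given here includes the general shift of 0.33.

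Most exon calls had an intron call of the same direction where introns were tested. Of the 226 genes lower by exons, 127 had a tested intron entry, and 99 of these were also called lower by introns. Of the 254 higher by exons, 123 had one, and 91 were called higher. No gene was called in opposite directions by its exons and introns. Starting from introns, the 319 genes lower by introns had a median exon difference of -0.53, and the 456 higher by introns one of 0.19. Genes with 1 TPM or more at stage 5, taken as maternal, made up 55.5% of the intron falls and 63.2% of the intron rises, but 12.4% of the exon falls and 5.51% of the exon rises.

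**Figure D1:**
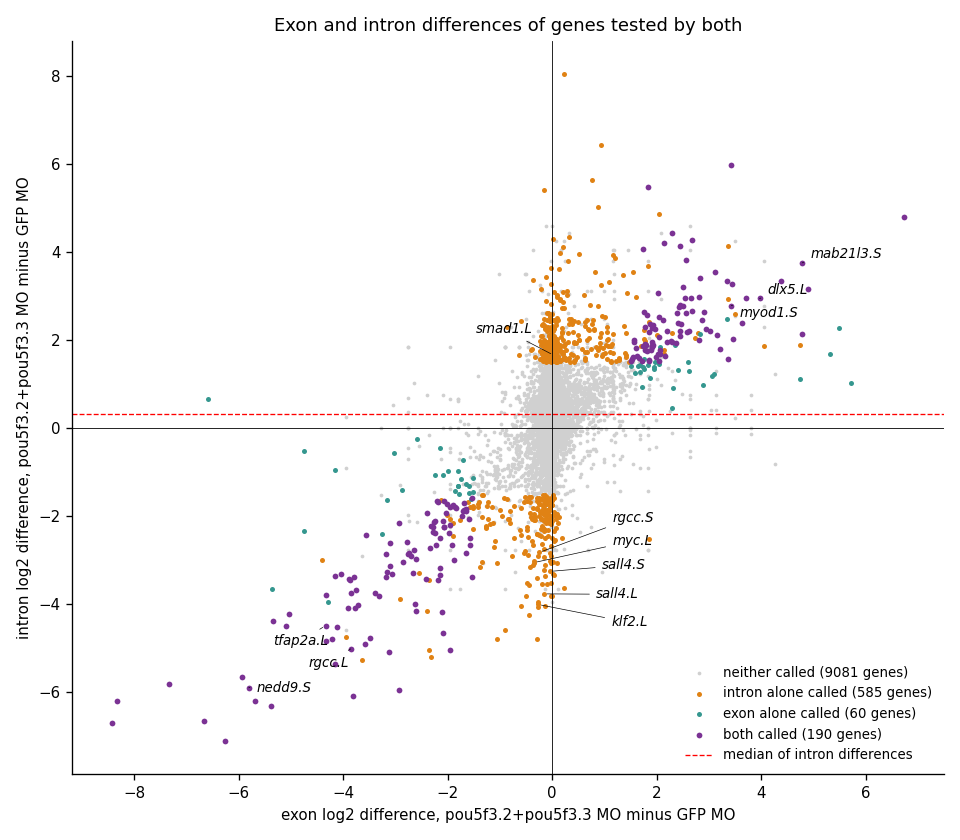
Log2 difference by exons (horizontal) and by introns (vertical), *pou5f3.2*/*pou5f3.3* morphants minus GFP controls, for the 9916 genes tested by both; each point is a gene, coloured by which entry was called. The 190 genes called by both lie along the diagonal, many of the 585 called by introns alone lie in a vertical band near an exon difference of 0, and the dashed line marks the intron median of 0.33.

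Genes switched on at genome activation held larger shares of falls than all genes tested, by exons and by introns, and a larger share of rises by exons but not by introns. Activated genes were defined by higher levels in vehicle-treated than in triptolide-treated stage 9 embryos, triptolide being an inhibitor of transcription, in each of 2 collections, and by higher levels at stage 9 than at stage 5. Of 6700 activated genes, 333 (4.97%) were lower in the morphants and 279 (4.16%) higher, against 1.62% and 2.24% of all genes. They made up 74.7% of the genes that fell and 45.1% of those that rose, and 24.3% of all genes tested. By exons 2.27% of them fell and 1.45% rose, against 0.819% and 0.920% of all genes. By introns, tested in 6265 of them, 4.37% fell and 3.86% rose, against 3.22% and 4.60% of all intron entries, and they made up 53.1% of the intron rises but 63.2% of the entries. With introns scaled alone the activated genes gave 436 falls and 164 rises. The first-wave genes, activated also under cycloheximide and thus without new protein, counted 189 falls and 163 rises out of 3199 (5.91% and 5.10%), and 255 and 99 with introns scaled alone. Among the 1424 activated genes without maternal mRNA, 181 (12.7%) fell and 125 (8.78%) rose. With exon and intron calls pooled, these were the highest shares of the classes compared. By introns alone 8.85% of them rose, less than the 79 of 654 entries (12.1%) of genes neither activated nor maternal. The 862 genes already active at stage 8 were called in 23 cases lower (2.67%) and 20 higher (2.32%), and by introns 2.36% were lower and 2.24% higher, below the shares of all entries. Maternal genes that were not activated numbered 13433, and by exons 11 of them were lower and 7 higher, or 0.0819% and 0.0521%. By introns 27 of the 2997 with an entry were lower (0.901%) and 135 higher (4.50%), against 3.22% and 4.60% of all entries. Genes that were neither activated by stage 9 nor maternal made up 27.1% of all genes but 59.1% of the exon rises, 150 of 254, and 27.9% of the exon falls. A gene could enter the test through any library, and a gene barely detected in the controls can rise but hardly fall. The split of this class is thus partly set by its definition, and so is that of the activated genes. In a class added after the values were seen, genes with higher exon levels at stage 10.5 than at stage 9 made up 53.1% of the exon rises and 54.4% of the exon falls, against 15.0% of all genes.

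**Figure D2:**
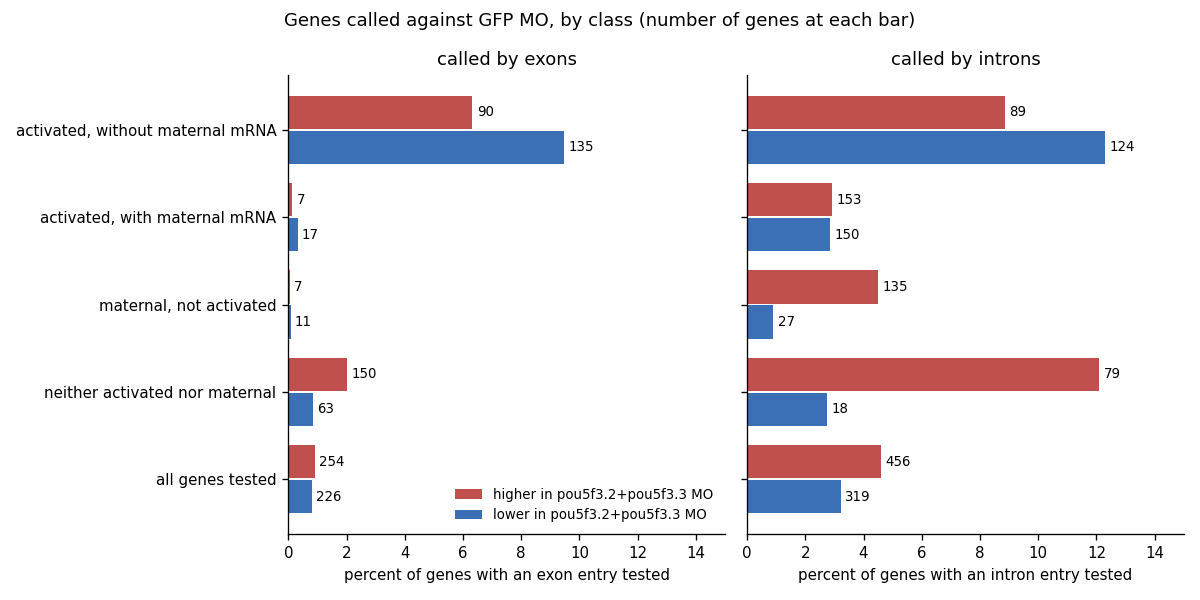
Percent of genes called higher or lower in *pou5f3.2*/*pou5f3.3* morphants than in GFP controls, by exons (left panel) and introns (right panel), with the number of genes at each bar. Activated genes without maternal mRNA had the highest shares of exon calls, 135 lower and 90 higher, and genes neither activated nor maternal had 150 higher against 63 lower by exons. These splits are partly set by how the classes are defined.

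The deepest falls reached levels at or near 0 in the morphants. *lpar6.S*, a receptor for lysophosphatidic acid, had no count in any of the 3 morphant libraries, against 9.02, 13.4 and 11.1 TPM in the controls. Set against a floor of 3 counts per library, it was at least 66.7-fold lower in the morphants (edgeR adjusted p = 5.58e-19). *nedd9.S*, which encodes a focal adhesion scaffold, had 0.536, 0.147 and 0.333 TPM in the morphants and 19.5, 19.4 and 18.2 TPM in the controls. It fell by 5.81 ± 0.227 by exons and 5.89 by introns on the log2 scale (edgeR adjusted p = 7.01e-27 and 2.31e-33), in unspliced and mature transcript alike. *rgcc.L*, a cell cycle regulator, had 4.78, 6.28 and 4.67 TPM in the morphants, against 79.5, 73.7 and 71.5 TPM in the controls, and 5.73 TPM on average at stage 5, before zygotic transcription. Next came *cbarp.L*, a regulator of calcium channels, with 0.395, 0.299 and 0.869 TPM against 8.98, 6.71 and 7.02 TPM in the controls. The ADP-ribosyltransferase gene *tiparp.S* had 0.475, 0.160 and 0.619 TPM against 6.40, 3.40 and 7.83 TPM in the controls. Neither gene overlapped between the groups, and the differences were -3.85 for *cbarp.L* and -3.80 for *tiparp.S*. A gene without a symbol in the files, gene23845, had no counts in the morphants and 9.21, 10.6 and 13.7 TPM in the controls, at least 13.6-fold lower in the morphants. By introns the largest falls included *sema3f.L*, a secreted semaphorin, at -6.19, the cement gland gene *ag1.L* at -6.08, and the Wnt receptor *fzd4.S* at -5.04 (edgeR adjusted p = 8.59e-39, 6.49e-14 and 1.85e-23). By exons *fzd4.S*, which had 12.6 TPM of maternal mRNA at stage 5, differed by -1.96, with 6.60, 5.21 and 5.13 TPM in the morphants and 23.3, 21.9 and 19.5 TPM in the controls.

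*smad4.S*, a copy of the common partner of all Smad signalling proteins, was called by exons at -6.59 (edgeR adjusted p = 2.74e-06), and this value belongs largely to 1 library. It had 7.20, 5.77 and 14.4 TPM in the morphants but 2476, 17.6 and 81.5 TPM in the controls. Without GFP replicate 1 the difference was -2.46 (adjusted p = 0.0408). Its introns differed by 0.66 and were not called. At the other end, *rps24.L*, a ribosomal protein gene named after its values were seen, stood apart in morphant replicate 2 alone, with 16.5, 174 and 14.0 TPM in the morphants and 18.1, 15.3 and 14.8 TPM in the controls.

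Surface ectoderm genes fell and rose. Of 63 genes of the surface ectoderm list tested, 10 (15.9%) fell and 5 (7.94%) rose by exons or introns, against 1.62% and 2.24% of all genes, and the median exon difference of the list was -0.01, against -0.03. Members of this and the other lists were chosen with earlier results of these data known. A larger share than that of all genes is therefore not independent evidence about a list. *tfap2a*, encoding the transcription factor AP-2 alpha of epidermis and neural crest, stayed at or below 1.03 TPM in both copies in the morphants. *tfap2a.L* had 0.672, 0.532 and 1.03 TPM in the morphants and 15.1, 16.0 and 13.7 TPM in the controls, and *tfap2a.S* had 0.163, 0.328 and 0.445 TPM against 5.92, 7.00 and 5.94 TPM. Both fell by 4.34 on the log2 scale, with standard errors of 0.215 and 0.231, and by 4.48 and 3.79 in introns. Other falls were partial. *has1.S*, a hyaluronan synthase, kept 55.1, 40.6 and 44.3 TPM in the morphants, against 160, 173 and 161 TPM in the controls, a difference of -1.85 ± 0.101 (edgeR adjusted p = 8.50e-21). *hal.1.L*, histidine ammonia-lyase, kept 21.7, 23.6 and 28.1 TPM in the morphants, against 88.9, 108 and 96.8 TPM in the controls. *lpar6.L*, whose S copy had no count, kept 10.9, 9.81 and 9.87 TPM, against 27.5, 31.3 and 33.3 TPM in the controls, and *foxi1.L*, a forkhead regulator of ionocytes, kept 2.43, 3.33 and 3.42 TPM, against 7.50, 8.97 and 10.0 TPM. None of these genes overlapped between the groups. *hal.2.L* and the keratin gene *krt12.4.L* were called by introns, at -1.78 and -2.25. *foxi1.S* had no morphant count and under 0.5 TPM in each control, at least 1.47-fold lower. The 5 that rose were *krt7.L*, *krt7.S*, *dlx5.L*, *dlx3.L* and *dlx3.S*. *krt7.L*, a simple-epithelium keratin, had 16.4, 19.7 and 17.3 TPM in the morphants and 5.91, 6.30 and 6.07 TPM in the controls. *dlx5.L*, a homeobox gene of the neural plate border, had 2.41, 2.17 and 2.72 TPM against 0.160, 0.126 and 0.131 TPM in the controls, a difference of 3.97 ± 0.601 (edgeR adjusted p = 8.98e-07). *epcam.S*, an epithelial adhesion gene and the most abundant member not called, averaged 557 TPM in the morphants and 534 TPM in the controls. Several of these calls rested on 1 library. *dlx3.L* was at 1.49 without GFP replicate 1 and 1.72 without morphant replicate 2 (adjusted p = 0.0988 and 0.0913). *dlx3.S* was at 1.20 without GFP replicate 2 and 1.63 without morphant replicate 1 (adjusted p = 0.178 and 0.0537) by exons, and by introns at 1.17 with introns scaled alone and 1.44 without GFP replicate 1 or morphant replicate 3. *krt7.L* was at 1.42 without morphant replicate 2 and just under 1.5 without GFP replicate 1, its introns at 1.17 when scaled alone, and *foxi1.L* was at -1.41 without morphant replicate 1 and -1.46 without GFP replicate 3. *foxi1.S* lost its call in 5 of the 6 reduced sets, at an adjusted p of up to 0.0847, and *krt12.4.L* missed it with DESeq2 (adjusted p = 0.0648).

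**Figure D3:**
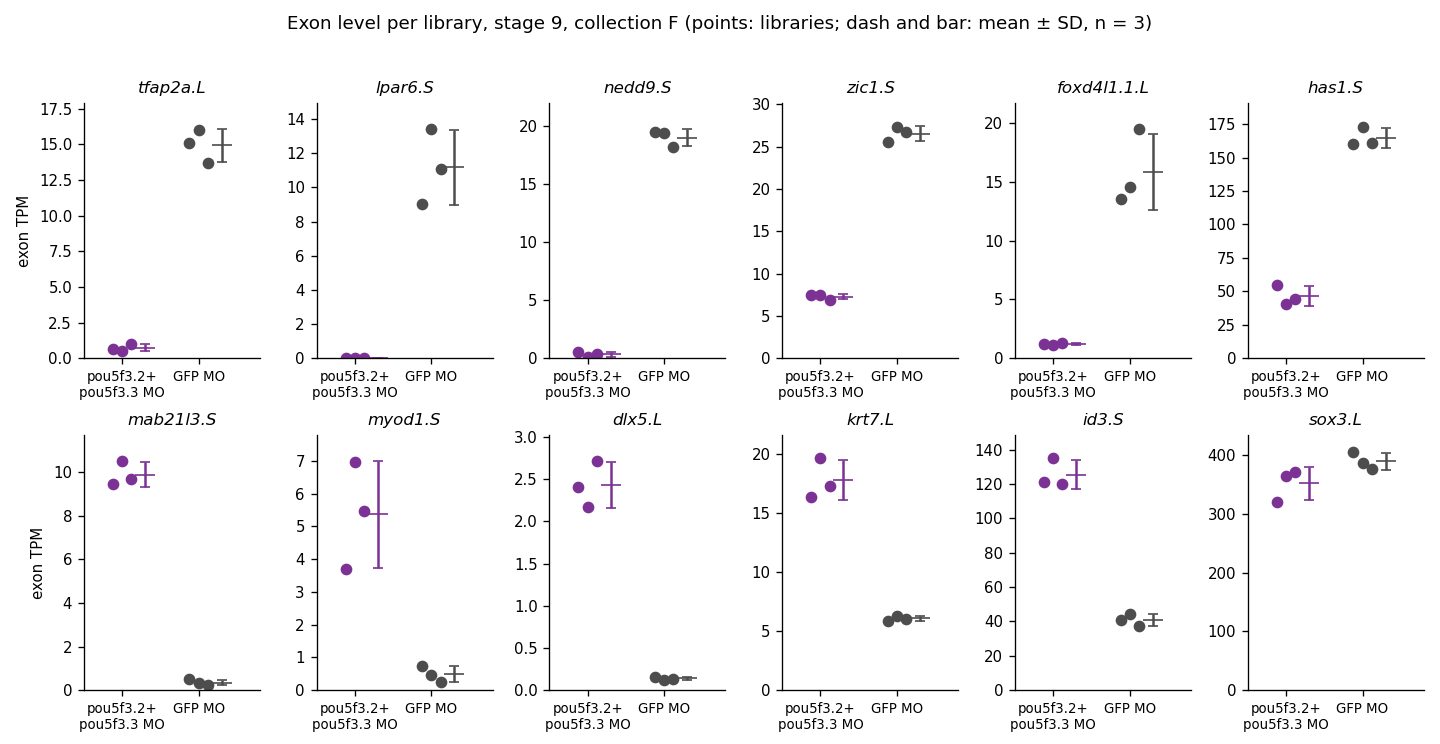
Exon level in TPM of 12 genes in the 3 *pou5f3.2*/*pou5f3.3* morphant libraries (left in each panel) and the 3 GFP control libraries (right), with mean ± SD. The top row holds genes that fell, where no morphant point reaches a control point, and the lower row holds 5 genes that rose and *sox3.L*, whose levels of 320 to 372 TPM in the morphants and 377 to 405 TPM in the controls differ little.

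In the neural plate list 11 of 82 (13.4%) were lower and 1 (1.22%) higher, against 1.62% and 2.24% of all genes. Its median exon difference was -0.22, against -0.03 for all genes. *zic1.S*, a zinc-finger factor of early neural ectoderm, had 7.46, 7.44 and 6.93 TPM in the morphants against 25.6, 27.3 and 26.7 TPM in the controls, and *zic4.S* was called by introns at -2.57. *foxd4l1.1.L*, a forkhead gene that keeps neural precursors immature, had 1.23, 1.14 and 1.30 TPM in the morphants and 13.5, 14.5 and 19.5 TPM in the controls. Its S copy fell by 2.41 and its relative *foxd4l1.2.L* by 2.71, in each case without overlap. *hes7.1.S*, a Hairy-related repressor, averaged 0.506 ± 0.524 TPM in the morphants and 7.61 ± 2.50 TPM in the controls (SD, n = 3 each). Proneural *neurog3.L* and *neurog3.S* and the Iroquois gene *irx2.L* fell by 2.43, 2.63 and 1.57. *pax6.L*, an eye and forebrain regulator, was the member that rose, and it did so at trace level, with 0.767, 0.531 and 0.234 TPM in the morphants and 0, 0.0480 and 0.05 TPM in the controls. Abundant maternal *gmnn.S*, encoding the replication licensing inhibitor geminin, was not called, at averages of 739 TPM in the morphants and 721 TPM in the controls. Without morphant replicate 1, *neurog3.S* was at -2.08 and *irx2.L* at -1.40 (adjusted p = 0.119 and 0.0653), and *neurog3.S* also missed the call without GFP replicate 2 (adjusted p = 0.0577) and *irx2.L* without GFP replicate 1 (adjusted p = 0.0756). The intron call of *pax6.L* was lost without morphant replicate 1 (2.03, adjusted p = 0.0560), while its exon call, 3.63, held without each library in turn.

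Genes of the organizer and of the maternal Wnt response were called both ways. Of 60 tested, 5 (8.33%) were higher and 3 (5.00%) lower, against 2.24% and 1.62% of all genes. The median exon difference was 0.15, against -0.03 for all genes. With introns scaled alone the counts were 4 higher and 5 lower, so which direction had more calls depends on the scaling. *lhx5.S*, a LIM homeobox gene of the forebrain, had 7.50, 8.70 and 8.87 TPM in the morphants against 33.3, 35.0 and 31.1 TPM in the controls, a difference of -2.01 ± 0.186 (edgeR adjusted p = 2.09e-12). *sfrp2.L* and *sfrp2.S*, secreted Wnt inhibitors, fell by 1.65 and 2.70. Those that rose were low in both groups. *otx2.L*, an anterior homeobox gene, had 2.29, 2.31 and 1.71 TPM in the morphants and 0.255, 0.602 and 0.140 TPM in the controls. *osr1.L*, a zinc-finger gene of intermediate mesoderm, had 1.15, 0.939 and 0.607 TPM against 0.0560, 0.176 and 0.184 TPM in the controls. *osr2.L* and the Wnt target *sp5.S* differed by 2.65 and 3.10 by exons and *cer1.S*, a secreted Nodal, BMP and Wnt antagonist, by 1.58 by introns. Genes at the head of the organizer list by level, *not.S* and *sp5l.L*, averaged 99.4 and 71.4 TPM in the morphants, against 88.2 and 75.2 TPM in the controls, and were not called. *sp5.S* had 2.15 without morphant replicate 1 (adjusted p = 0.144). *osr2.L* missed its exon call without either of morphant replicates 1 and 2 or GFP replicates 1 and 3, at adjusted p up to 0.170, and with DESeq2 (adjusted p = 0.0538). Introns of *otx2.L* without morphant replicate 1 (adjusted p = 0.0636) or GFP replicate 2 (adjusted p = 0.0715) missed the call, while its exon call, 2.56, held. *cer1.S* was at 1.21 with introns scaled alone (adjusted p = 0.0596), missed the call with DESeq2 (adjusted p = 0.121) and at 1.38, 1.34 and 1.35 without morphant replicate 2, GFP replicate 1 and GFP replicate 3.

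Of 44 factors linked to pluripotency beside Pou5f3 and Sox, 7 (15.9%) were lower and 1 (2.27%) higher. Over all genes 1.62% were lower and 2.24% higher. The median differences were -0.06 by exons and 0.30 by introns, against -0.03 and 0.33 for all genes. The 7 falls were called by introns, and that of *prdm14.S* by exons as well. *sall4*, a zinc-finger partner of OCT4 in mammalian stem cells, gives an example. Introns of *sall4.L* had 0.702, 0.433 and 0.925 RPKM (reads per length and library size) in the morphants and 8.16, 9.75 and 9.44 RPKM in the controls, a fall of 3.76 ± 0.140 on the log2 scale (edgeR adjusted p = 2.43e-27). Its exons held 256, 226 and 264 TPM in the morphants and 263, 283 and 271 TPM in the controls, and 254 TPM at stage 5. The intron levels of the groups stood far apart while exons differed by -0.16, and *sall4.S* differed by -3.25 by introns and -0.05 by exons. *klf2.L*, a Kruppel-like factor, had 0, 0.808 and 0.322 RPKM in introns of the morphants, against 3.64, 7.61 and 6.11 RPKM in the controls, and exon levels of 144, 132 and 156 TPM, against 165, 175 and 168 TPM. *klf2.S*, *klf17.L* and *myc.L* fell by introns at -1.81, -1.85 and -3.05. *prdm14.S*, a chromatin regulator of mouse pluripotent cells with little maternal mRNA, fell by both entries, at -2.74 and -2.84. *otx1.S* was the gene that rose, with 0.548, 0.766 and 0.446 TPM in the morphants and 0.154, 0.121 and 0.158 TPM in the controls. The L copy was far more abundant and not called, at averages of 59.0 TPM in the morphants and 60.2 TPM in the controls. The exon call of *otx1.S* was lost without morphant replicate 2 (1.72, adjusted p = 0.0683) or GFP replicate 2 (1.85, adjusted p = 0.0522), and its intron call, 1.62, without GFP replicate 2 (1.22) or with introns scaled alone (1.26).

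In the muscle and mesoderm determination list 5 of 30 (16.7%) were higher and 2 (6.67%) lower, against 2.24% and 1.62% of all genes. The median exon difference was 0.08. Members barely detected in the controls, such as *mab21l3.S*, *myod1.S* and the *foxf1* copies, could rise but hardly fall. The split of this list is thus partly set by the choice of its members. *mab21l3.S*, a mab-21 family gene, had 9.44, 10.5 and 9.68 TPM in the morphants and 0.497, 0.312 and 0.245 TPM in the controls. This difference of 4.79 ± 0.313 (edgeR adjusted p = 2.83e-18) was the largest exon rise of a gene with a symbol and at least 5 TPM in the higher group, and its introns rose by 3.76. *myod1*, the switch gene of skeletal muscle, rose in both copies. *myod1.L* had 13.0, 11.3 and 18.3 TPM in the morphants against 4.15, 3.74 and 4.04 TPM in the controls, and *myod1.S* had 3.69, 6.95 and 5.46 TPM against 0.751, 0.472 and 0.247 TPM. The S copy had no maternal mRNA at stage 5 and differed by 3.43 ± 0.407, whereas the L copy, with 3.80 TPM at stage 5, differed by 1.81 ± 0.204 by exons but by 2.57 by introns. *foxf1.L* and *foxf1.S*, forkhead genes of visceral mesoderm, rose by 2.30 and 2.88 and had at most 0.333 TPM in any control. The repressor genes *prdm1.L* and *prdm1.S*, which also mark non-neural and border ectoderm, fell by 1.88 and 1.60, the second at -1.48 and -1.49 without morphant replicates 2 and 3 and -1.49 without GFP replicate 3. *lmo2.L*, the most abundant member not called, averaged 7.35 TPM in the morphants and 6.82 TPM in the controls.

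Of 87 mesendodermal genes, 4 (4.60%) were called higher and 2 (2.30%) lower, against 2.24% and 1.62% of all genes. With introns scaled alone the calls became 3 higher and 5 lower. The median exon difference was 0.18, against -0.03 for all genes. At an unadjusted edgeR exon p under 0.05, 28 members were higher and 5 lower. Over all genes 3145 of 27602 exon entries passed that level in either direction. *gata6.S*, a GATA factor of endoderm and heart, had 1.36, 0.888 and 1.14 TPM in the morphants and 0.101, 0.318 and 0.333 TPM in the controls, a difference of 2.07 ± 0.399 (edgeR adjusted p = 0.000107). *gata4.S* had 1.24, 2.34 and 1.64 TPM against 0.819, 0.268 and 0.504 TPM, and its intron call, 1.87, held without each library in turn. *gata6.L* was called by introns at 1.51. The falls were *smad4.S*, described above, and the introns of the Nodal co-receptor gene *tdgf1.1.L*, which had 0.321, 0.325 and 0.380 RPKM in the morphants and 0.984, 1.08 and 1.61 RPKM in the controls. The vegetal T-box factor genes *vegt.L* and *vegt.S*, the most abundant of the list, averaged 244 and 230 TPM in the morphants and 226 and 204 TPM in the controls. The exon call of *gata4.S* was lost without morphant replicate 2 (1.45, adjusted p = 0.0912) or GFP replicate 2 (1.38, adjusted p = 0.0978), and with DESeq2 (adjusted p = 0.0797). *gata6.L* lost its call without morphant replicate 1 (1.24) or GFP replicate 1 (1.22). With introns scaled alone *gata6.L* was at 1.15 and the introns of *gata6.S* at 1.43.

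Targets and parts of BMP signalling had more rises than falls. Of 60 tested, 5 (8.33%) were higher and 2 (3.33%) lower, against 2.24% and 1.62% of all genes. The median exon difference was -0.03, the same as for all genes. With introns scaled alone the counts were 4 higher and 5 lower, so this order depends on the scaling. *id3.S*, an inhibitor of bHLH factors and a direct BMP target, had 121, 135 and 120 TPM in the morphants and 40.6, 44.3 and 37.2 TPM in the controls. Its difference of 1.59 ± 0.122 (edgeR adjusted p = 2.19e-15) belonged to the gene with the highest level among the exon rises of all lists. The GATA genes of ventral ectoderm rose at trace level, *gata2.L* with 0.720, 1.56 and 0.563 TPM in the morphants and 0.182, 0.143 and 0.187 TPM in the controls. *gata2.S* had no control count and was at least 1.70-fold higher, and *gata3.S* rose in introns by 2.12. Introns of the BMP effector gene *smad1.L* rose by 1.66, or 1.30 with introns scaled alone, with exon levels of 226, 193 and 222 TPM against 198, 215 and 203 TPM in the controls. *admp.S*, an organizer BMP-like ligand gene, had 7.58, 11.2 and 8.79 TPM in the morphants and 16.0, 24.5 and 26.5 TPM in the controls. Its intron call at -1.51 lay at the threshold and was missed under 6 other settings, where it lay between -1.46 and the threshold, and without morphant replicate 1 (-1.40), morphant replicate 3 (-1.45) or GFP replicate 3 (-1.31). *twsg1.S*, a BMP-binding protein gene, fell by introns at -2.83. The ventral homeobox gene *ventx2.1.S* averaged 188 TPM in the morphants and 162 TPM in the controls and was not called. The exon value of *gata2.L* was 1.85 without morphant replicate 2 (adjusted p = 0.0741).

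In the list of FGF signalling and feedback, 5 of 53 (9.43%) were lower and 3 (5.66%) higher. Over all genes 1.62% were lower and 2.24% higher. The median exon difference of the list was -0.11, against -0.03. *dusp1.L*, a MAP kinase phosphatase gene, had 16.5, 21.3 and 15.1 TPM in the morphants and 62.0, 63.3 and 70.4 TPM in the controls, and *dusp1.S* had 41.2, 38.1 and 33.8 TPM against 95.9, 96.5 and 101 TPM. *dusp1.L* fell by 1.92 ± 0.128 by exons, and *dusp1.S* differed by -1.40 ± 0.0987 by exons and was called through introns at -1.67. *spry2.S*, a Sprouty inhibitor, *fgf3.S* and the posterior homeobox gene *cdx1.S* fell by introns at -1.61, -4.16 and -3.16. The immediate-early gene *fos.L* rose in introns by 3.33, with 0.886, 1.12 and 1.30 RPKM in the morphants and 0.113, 0.0880 and 0.0930 RPKM in the controls. *fos.S* rose by 1.76 and *spred1.L* by 1.79 by introns, but with introns scaled alone they were at 1.39 and 1.43, and the list then had 1 rise and 8 falls. The intron call of *fos.S* was also lost without morphant replicate 2 (adjusted p = 0.076) or GFP replicate 2 (adjusted p = 0.0691), and with DESeq2 (adjusted p = 0.129). Exons of *fos.S* differed by -0.18 and were not called. The receptor gene *fgfr1.S* averaged 77.8 TPM in the morphants and 76.9 TPM in the controls.

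In the retinoic acid list 4 of 45 (8.89%) were lower and 2 (4.44%) higher, against 1.62% and 2.24% of all genes. The median exon difference was -0.14, against -0.03 for all genes. *meis3.S*, a hindbrain homeobox gene, had 0, 0.0640 and 0 TPM in the morphants and 1.44, 1.38 and 0.790 TPM in the controls, and fell by 5.39 by exons and 6.31 by introns (edgeR adjusted p = 3.01e-07 and 1.11e-16). *meis3.L* fell by 5.19 by introns. The enzymes that make and degrade retinoic acid, *aldh1a2.S* and *cyp26a1.L*, fell by introns at -2.31 and -1.95, with exon differences of -0.48 and -0.34. *aldh1a3.S* and the receptor gene *rara.L* rose by introns, by 2.53 and 2.46, and *rdh10.S*, the most abundant member, was not called at averages of 124 TPM in the morphants and 113 TPM in the controls.

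**Figure D4:**
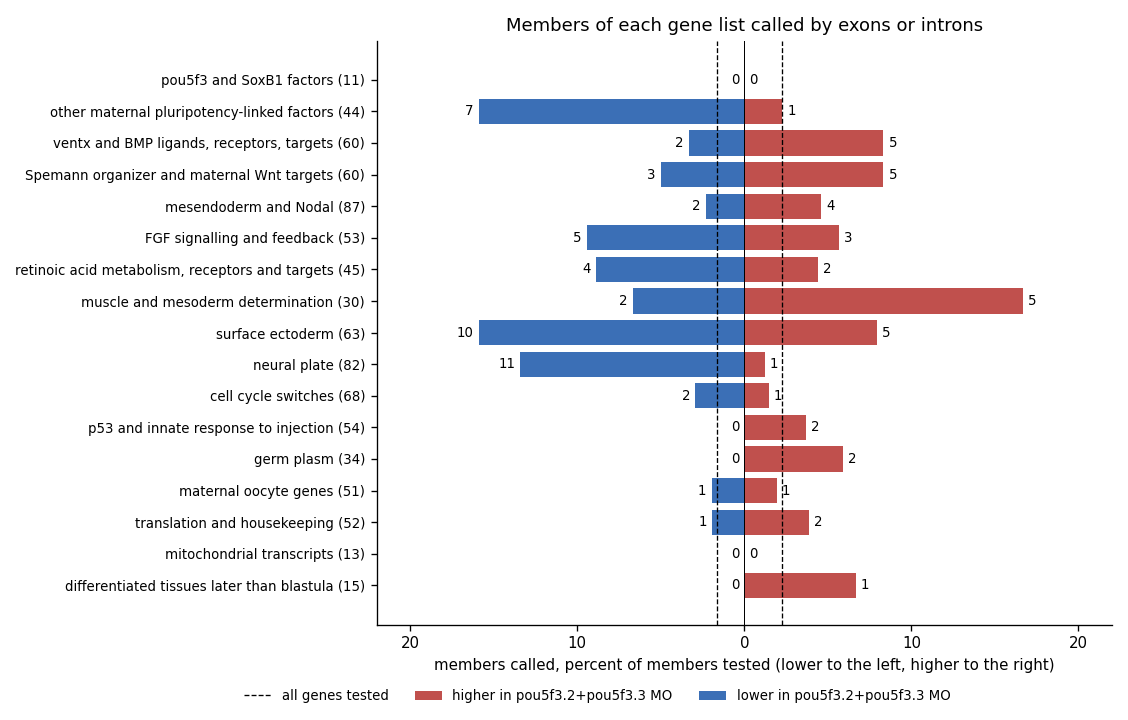
Members of 17 gene lists called lower (left) or higher (right) in *pou5f3.2*/*pou5f3.3* morphants than in GFP controls, in percent of members tested, with the number called at each bar and the number tested in parentheses. Dashed lines mark all genes tested, 1.62% lower and 2.24% higher; surface ectoderm (10), neural plate (11) and other pluripotency-linked factors (7) have the longest bars of falls, and muscle and mesoderm determination (5 of 30) the longest bar of rises. List members were chosen with earlier results of these data known.

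Lists chosen to read the state of the embryo had 2 or fewer calls in each direction. Over all genes 2.24% were higher and 1.62% lower. The shares higher and lower were 3.70% and 0% for p53 and innate responses and 1.47% and 2.94% for the cell cycle. For germ plasm they were 5.88% and 0%, and for oocyte genes 1.96% and 1.96%. Housekeeping genes had 3.85% and 1.92%, and later-tissue genes 6.67% and 0%. Several shares thus lay above those of all genes, each from 1 or 2 calls. No mitochondrial transcript was called by edgeR or DESeq2 out of 13, 0 had an unadjusted p under 0.05, and their summed level was 75868 to 78347 TPM in the morphants and 71031 to 75337 TPM in the controls. Of 54 genes of the p53 and innate responses that can follow injection, 2 were higher and 0 lower by edgeR and by DESeq2, 6 were higher and 5 lower at an unadjusted exon p under 0.05, and the list summed to 2246 to 2296 TPM in the morphants against 2219 to 2240 TPM in the controls. The 2 were *ccng2.S*, a cyclin-like p53 target, by introns at 2.29, and *rsad2.L*, an antiviral gene, which averaged 1.30 ± 0.807 TPM in the morphants and 0.418 ± 0.244 TPM in the controls (SD, n = 3 each). *rsad2.L* missed its call with DESeq2 (adjusted p = 0.0937) and was at 1.07 without morphant replicate 1 (adjusted p = 0.354), 1.35 without GFP replicate 2 and 1.53 without GFP replicate 3, and its intron call was at 1.22 with introns scaled alone. Of 68 cell cycle genes, *cdc25b.S*, a mitotic phosphatase, and *ccne2.S*, cyclin E2, were lower and *fbxo5.S*, an inhibitor of the anaphase-promoting complex, was higher, while 21 were lower and 1 higher at an unadjusted exon p under 0.05. At that level 3145 of all 27602 exon entries passed in either direction, a smaller share than in the cell cycle list. *cdc25b.S* averaged 9.57 ± 0.380 TPM in the morphants and 30.3 ± 0.324 TPM in the controls (SD, n = 3 each). Introns of *ccne2.S* fell by 2.18 and those of *fbxo5.S* rose by 2.10. Germ plasm genes had 2 rises in 34, *tdrd7.L* by introns (1.70, or 1.34 with introns scaled alone) and *otx1.S*, which the pluripotency list also holds. Among 51 oocyte genes *zfp36.S* rose by introns at 3.49 (adjusted p = 0.000609, or 0.0662 with DESeq2) and *zfp36l2.L* fell at -1.72, both encoding proteins that destabilize mRNA. In the housekeeping list of 52, introns of *actg1.S* and *rps6.S* differed by 1.54 and 1.51, but by 1.18 and 1.14 with introns scaled alone. Those of *eef1a1o.S* fell by 1.56. *actg1.S* missed its call without morphant replicate 2 (1.46) or GFP replicate 2 (1.44), *eef1a1o.S* without morphant replicate 1 or GFP replicate 2 (-1.48 in each case), and *rps6.S* without any 1 of 5 of the 6 libraries. The single call among later-tissue genes, introns of *elavl3.L* at 1.55, was at 1.18 with introns scaled alone and at 1.23, 1.62 and 1.26 without morphant replicate 1, GFP replicate 2 and GFP replicate 3.

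Most of the genes with the largest exon rises bore no symbol in the files. Of the 254 exon rises 146 (57.5%) had none, against 31.8% of all genes, and so did 106 of the 226 exon falls (46.9%). An example is gene23450, with 10.1, 4.77 and 7.51 TPM in the morphants and no count in any control, at least 3.73-fold higher. The next genes with a symbol were picked after their values were seen. *atp1b2.L*, a sodium pump subunit, rose by 2.28 ± 0.269 (edgeR adjusted p = 1.35e-09) and did not overlap between the groups. The sialyltransferase gene *st6galnac2* rose in both copies, by 2.07 and 2.04, and *pcdh18.S*, a protocadherin gene, by 1.97. *cldn4.S*, a tight-junction claudin gene, had 51.0, 52.4 and 43.8 TPM in the morphants and 16.7, 15.9 and 15.2 TPM in the controls. By introns, *adm.S*, the gene of the peptide adrenomedullin, rose by 4.21 (edgeR adjusted p = 2.22e-06).

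The 2 copies of a gene did not always move together. Among L and S pairs with at least 1 copy lower, 24 of 166 (14.5%) had both copies called, and among those with 1 copy higher, 23 of 239 (9.62%). A missed call in 1 copy does not show a difference, so the ratio of L to S counts was tested for 5939 pairs with limma. It differed between the groups in 77 (1.30%), toward L in 40 and toward S in 37. This count was unstable: it was 142 with a larger pseudocount of 2 and between 13 and 36 when 1 library was left out (13, 36 and 34 without morphant replicates 1, 2 and 3, and 14, 19 and 18 without GFP replicates 1, 2 and 3). Copies that share near-identical stretches may be split by the counting, so these ratios are uncertain there. *lpar6* had the smallest p, and its L copy made up 100% of the pair's counts in every morphant library and 77.3, 72.3 and 77.0% in the controls. In *adamts1*, a matrix protease gene, the L copy made up 80.5, 79.6 and 79.8% of counts in the morphants, against 46.1, 43.0 and 45.5% in the controls, a ratio change of 2.29 ± 0.0777 (limma adjusted p = 3.40e-05). *adamts1.S* had 3.75, 3.96 and 4.61 TPM in the morphants, against 47.6, 51.8 and 45.7 TPM in the controls, whereas *adamts1.L* had 15.9, 15.8 and 18.7 TPM, against 41.9, 40.2 and 39.1 TPM, and was not called at -1.29. In *rgcc* it was the L copy that fell, to 3.96, 5.28 and 3.83% of the pair, against 36.8, 36.1 and 34.3% in the controls. *rgcc.S*, with maternal mRNA, had exons at 114, 111 and 115 TPM against 134, 129 and 135 TPM, although its introns fell by 2.82. The ratio of *sema3f* changed by -5.21. In *eef1a1o*, an elongation factor pair, the ratio changed by 0.50 ± 0.0242. The S copy had 522, 496 and 483 TPM in the morphants, against 660, 645 and 640 TPM in the controls. Copies were called in opposite directions in 2 pairs, *ca14* and *hhip*. The carbonic anhydrase copy *ca14.L* fell to 1.03, 1.04 and 0.933 TPM, against 8.75, 9.31 and 9.00 TPM in the controls, and *ca14.S* rose to 1.35, 0.801 and 1.01 TPM, against 0.201, 0.158 and 0.248 TPM.

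To compare embryos with and without the *sox3* morpholino, they were set directly against triple morphants of the same collection, in which *sox3* morpholino, at 40 ng, took the place of the GFP morpholino. Here 192 genes (0.696%) were higher and 71 (0.257%) lower in the *pou5f3.2*/*pou5f3.3* morphants. Of the 446 genes that had fallen against GFP, 41 were higher than in the triple morphants and 1 lower, and of the 619 that had risen, 23 were higher and 8 lower. Both sets were picked with the same *pou5f3.2*/*pou5f3.3* libraries that enter this comparison. That choice favours higher values among the rises and lower ones among the falls, so these splits are not independent of it. *hal.1.L* had 21.7, 23.6 and 28.1 TPM in the *pou5f3.2*/*pou5f3.3* morphants and a mean of 3.41 TPM in the triple morphants, a difference of 2.84 ± 0.167 (edgeR adjusted p = 8.03e-19). *stx19.L*, a syntaxin gene, differed by 2.88, *cdc25b.S* by 2.22 and *dusp1.S* by 1.97 in the same direction, each higher where *sox3* was not targeted. For *nedd9.S* this difference was -0.05 ± 0.566 and for *tfap2a.S* 0.05 (adjusted p = 1.00 in both), and at these low levels the standard errors do not show that the groups were alike. Introns of *nedd9.S* had a mean of 0.0963 RPKM in the *pou5f3.2*/*pou5f3.3* morphants and 0.0387 RPKM in the triple morphants, a difference of 1.33 ± 0.415 (edgeR adjusted p = 0.0437), short of the size that makes a call. Among rises, *mab21l3.S* and *myod1.S* were lower than in the triple morphants by 0.73 and 0.96 on the log2 scale (adjusted p = 0.000150 and 0.000570), short of the size that makes a call.

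The effect was also compared with that of *pou5f3.3* and *sox3* morpholinos in a separate collection, G, with its own GFP controls, by a test of the difference of the 2 effects. Collections differ in mothers and day, and intron counts were 5.47 to 5.76% in the collection G morphants and 3.85 to 4.20% in their controls, so collection and morpholino set cannot be told apart. In this test 58 genes (0.210%) had a higher difference in collection F and 98 (0.355%) a lower one. *hal.1.L* fell by 2.03 in the *pou5f3.2*/*pou5f3.3* morphants and by 5.48 in the *pou5f3.3*/*sox3* morphants, and *stx19.L* by 1.96 in the *pou5f3.2*/*pou5f3.3* morphants and by 4.04 in the *pou5f3.3*/*sox3* morphants. *timp-1.L*, a metalloproteinase inhibitor gene, had 25.3, 24.1 and 31.9 TPM in the *pou5f3.2*/*pou5f3.3* morphants against 7.12, 7.90 and 10.3 TPM in their controls, a rise of 1.64, whereas it differed by -0.30 in collection G. By exons *fzd4.S* differed by -1.96 in collection F and by -0.73 in collection G. The difference of these 2 effects was -1.23 (edgeR adjusted p = 9.92e-05), below the size that makes a call. Its introns differed by -5.04 in collection F and by -4.29 in collection G. The difference of these intron effects was -0.75 and did not pass (edgeR adjusted p = 0.737). The triple morphants share their GFP controls with the embryos described here, and their differences are given side by side without a test of likeness.

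**Figure D5:**
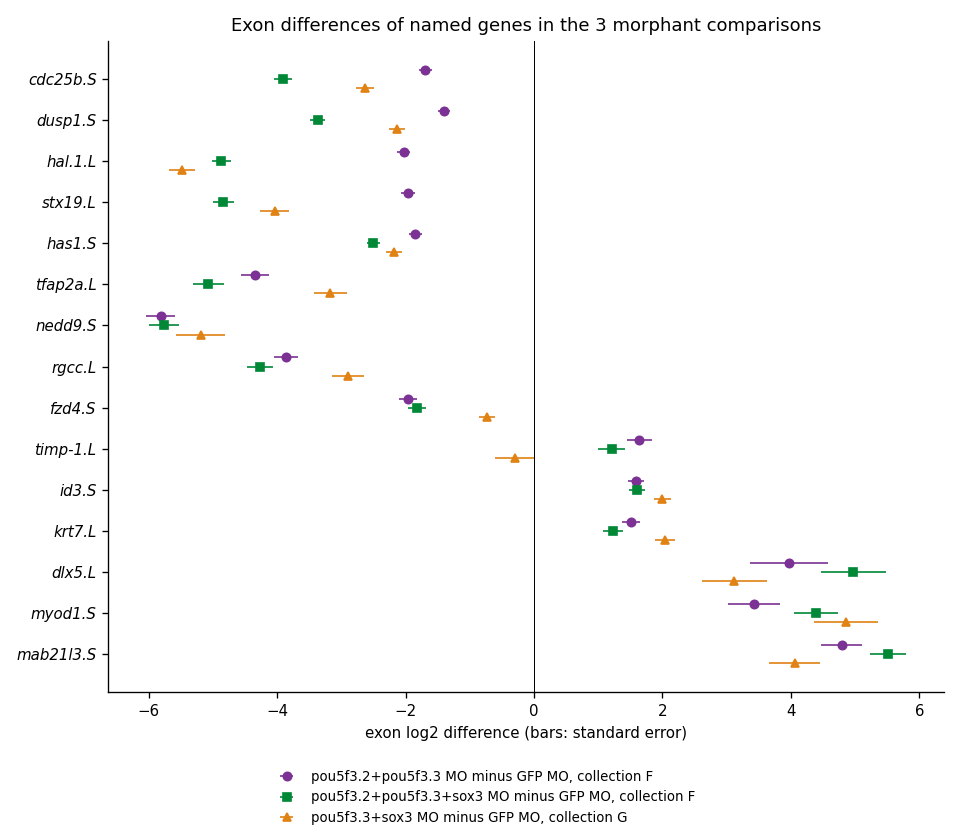
Exon log2 difference from GFP controls (horizontal, bars are standard errors) of 15 genes in *pou5f3.2*/*pou5f3.3* morphants (circles) and triple morphants (squares) of collection F, which share controls, and in *pou5f3.3*/*sox3* morphants of collection G (triangles). *hal.1.L*, *stx19.L*, *cdc25b.S* and *dusp1.S* lie nearer 0 in *pou5f3.2*/*pou5f3.3* morphants than in triple morphants, and *timp-1.L* lies at 1.64 in *pou5f3.2*/*pou5f3.3* morphants and at -0.30 in collection G.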

How the data were processed

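Embryos were sorted by the labels alone. The authors aligned reads with HISAT2 (2.2.1 in the submitters' processing notes) to the *X. laevis* v9.2 genome and counted them strand-specifically with featureCounts 2.0.1. The deposited counts are raw counts per gene, over exons and over introns cleared of regions covered at stage 5, repeats and other genes. Levels are the deposited TPM values of exons and the deposited RPKM values of introns, which are scaled to the exon total.

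Exon and intron counts were tested together with edgeR 4.0.16 (R 4.3.3, TMM, quasi-likelihood, all 53 libraries outside collection H, which the study set aside). Genes needed an exon CPM of 0.5 in a library, and intron entries more than 10 counts and 0.25 RPKM. Benjamini-Hochberg adjustment covered all entries. Copy ratios used limma 3.58.1 on log2 counts plus 0.5, for pairs with 100 counts. Alternatives included DESeq2 1.42.0, other scalings and filters, a replicate block and leaving out each library. Scaling introns alone was added after the data were seen. Members, the 17 lists and the alternatives were chosen with earlier results of these data known. Named genes were the Pou5f3 and SoxB1 copies, the 12 largest exon changes each way at 5 TPM or more and the 6 largest intron changes each way at 1 RPKM or more, without overlap, called list members with the 2 most abundant uncalled ones, and the 5 largest changes each way in the other comparisons. Scripts were tested on simulated data. Some genes that this rule names are not reported here.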

Additional observations from a re-analysis of the deposited data

Results flagged for a closer look

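The effect of the *pou5f3.2* and *pou5f3.3* morpholinos in collection F differed, in the edgeR test of the difference itself, from that of the *pou5f3.3* and *sox3* morpholinos in collection G in the genes below, the 5 largest exon differences each way at 5 TPM or more. Collection and morpholino set cannot be told apart in any of them. The difference of effects was 3.46 for *hal.1.L*, 2.08 for *stx19.L* and 2.82 for XB5961731.L [provisional:ins], which all fell in both collections and less in F, and 2.04 for 1 gene without a symbol that did the same. It was 1.95 for *timp-1.L*, which rose in F alone. It was -3.03 for *aplnr.S*, the apelin receptor gene, with 1.87, 1.41 and 0.989 TPM in the *pou5f3.2*/*pou5f3.3* morphants and 1.87, 1.39 and 1.70 TPM in their GFP controls. In collection G *aplnr.S* had 8.01, 0.609 and 6.81 TPM in the morphants and 0.623, 0.278 and 1.01 TPM in their controls. Morphant replicate 2 of collection G thus lay within the range of its controls. The *aplnr.S* difference did not pass without any 1 of 9 of the 12 libraries, the exceptions being *pou5f3.2*/*pou5f3.3* replicate 1, *pou5f3.3*/*sox3* replicate 2 and collection G GFP replicate 3, nor when only the 4 groups compared were fitted (adjusted p = 0.0829). For 4 genes without a symbol it was -4.64, -2.78, -2.44 and -2.10. In the first and second of these the collection F morphants were at their control level and the collection G morphants above theirs. The first was lost without collection G GFP replicate 1 (-4.14) or 3 (-4.21), and the second without *pou5f3.3*/*sox3* replicate 2 (-1.48).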

How the results depend on the processing

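Over 181 values of single genes and copy pairs, 2807 recalculations under other settings gave 2681 with the same direction and side of the threshold and 126 that no longer passed. In all, 32 exon or intron values lost their call without 1 library.

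Against GFP, DESeq2 called 141 genes higher and 149 lower by exons. No filter gave 795 intron entries higher and 602 lower, and 706 genes lower by either. Introns scaled alone, chosen after the data were seen, gave 250 intron entries higher and 482 lower, and 164 activated and 99 first-wave genes higher. A log2 minimum of 1 gave 1193 genes higher by either and 981 by introns, 71 list members, 725 activated and 405 first-wave genes higher. An adjusted p alone gave 2591 higher and 1283 lower by either, 578 and 805 by exons, 2268 and 739 by introns, 159 and 132 list members, 1957 and 853 activated genes and 1100 and 519 first-wave genes. Against the triple morphants, 36 genes were lower with DESeq2, 113 without a filter, 222 (365 higher) at a log2 minimum of 1 and 773 (1183 higher) by adjusted p alone. For the difference from collection G, 214 were lower without a filter, 212 (88 higher) at a log2 minimum of 1 and 311 (135 higher) by adjusted p alone. Copy ratios gave 142 pairs at a prior count of 2. The causes of these shifts were not tested.

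Leaving out 1 library gave 546 to 625 genes higher and 400 to 422 lower by either, 201 to 258 and 189 to 199 by exons, 411 to 464 and 301 to 324 by introns, 35 to 43 and 46 to 52 list members, 262 to 301 and 309 to 332 activated genes, and 158 to 175 and 182 to 191 first-wave genes. It gave 155 to 217 higher and 53 to 87 lower against the triple morphants, 51 to 68 and 77 to 143 for the difference from collection G, and 13 to 36 copy pairs.

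Replicate numbers did not pair the samples: deviations of same-numbered morphant and GFP libraries correlated at -0.074, -0.094 and -0.058. With the replicate block 567 genes were higher and 408 lower, and 10 copy pairs differed. Genes under about 1 TPM rest on few counts, and with 3 libraries a group a missed call does not show equality.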
